A study of Mus musculus with 24 samples.

Results

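The p53 family consists of Trp53, Trp63 and Trp73, 3 of the 21671 genes in the files, taken by name. RNA-Seq had been run on 24 samples of mouse spleen, from C57/Bl6 animals 8 weeks old, either left unstressed (mock) or taken 4 h after whole-body irradiation (IR) with 7 Gy. Cells binding B220 beads were kept as B cells, and the cells that ran through the column were kept as non-B cells. Each cell type and treatment held 4 Trp53+/+ (wt) and 2 Trp53-/- (null) samples, so that the null groups rested on very few animals, and the exons removed in the null allele are not given in the sources used here.

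The family encodes transcription factors with closely related DNA-binding domains. p53 is held at a low level by the ubiquitin ligase Mdm2 and is stabilized as a protein after DNA damage, when it drives cell cycle arrest and apoptosis, to which lymphocytes are especially prone. p63 is known for its part in stratified epithelia, and p73, made from a pair of promoters as a full-length or an amino-terminally truncated form, for its part in the nervous system and in ciliated cells.

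The summed level of 6 B cell markers ranged from 675.3 to 881.5 RPKM (reads per kilobase of gene and per M reads on exons) in the B cell samples and from 180.9 to 470.3 in the non-B samples, whereas 7 T cell markers summed to 37.0 to 71.5 and to 271.3 to 572.4, so that both populations carried their own markers, with B cell transcripts remaining in the non-B cells. Myeloid transcripts were present in the B samples too. In wt mock samples 4 macrophage and monocyte markers summed to 196.1 to 247.0 RPKM in B and to 271.5 to 305.7 in non-B cells. The sums of 4 neutrophil markers were 38.9 to 225.6 and 314.6 to 526.6 RPKM in the same groups. The depth was estimated at 4.66 to 10.89 M reads per sample, with a median of 8.69 M. One feature set some irradiated wt libraries apart. Of 1306 olfactory and vomeronasal receptor genes, chosen for being listed at 0 in at least 9 of the 12 mock samples, between 0.383% and 2.68% were above 0 in the mock samples. The share was 32.8%, 43.5%, 1.91% and 11.0% in irradiated wt B cells and 19.1%, 2.68%, 47.6% and 30.7% in irradiated wt non-B cells (replicates 1 to 4), against at most 6.82% in the irradiated null samples. Trp63 and Trp73, with their low values, are therefore given below with and without the libraries above 5%, which leaves replicate 3 of the irradiated wt B cells, replicate 2 of the irradiated wt non-B cells and 1 of the irradiated null B samples.

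Trp53 stands on chromosome 11 (69393861-69405375, plus strand, NCBIM37, the assembly known as mm9), Trp63 on chromosome 16 (25683849-25892188, plus strand) and Trp73 on chromosome 4 (153430358-153514317, minus strand). Promoter sequences are shown for Trp53 and Trp73 because both responded to IR and both have a neighbour transcribed away from them, Wrap53 and Wrap73. They come from RefSeq on GRCm38.p6, a later build than that of the files. In the stretch between the annotated ends of the Wrap53 and Trp53 genes (chr11:69580251-69580347, plus strand), capitals mark the only perfect match to the p53 consensus decamer, 64 to 55 bases before the first base of the Trp53 gene and 75 to 66 bases before the start that RefSeq's promoter window uses.

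Trp53 and Wrap53: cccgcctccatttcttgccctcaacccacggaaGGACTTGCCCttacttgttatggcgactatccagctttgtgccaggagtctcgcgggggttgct

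Upstream of the inner start of Trp73, from which the truncated form is made (chr4:154097174-154097423, minus strand), capitals mark a pair of abutting decamers, 66 to 47 bases before that start, with 2 mismatches to the consensus of 20 bases, at positions 10 and 15 counted from the 5′ end of the capitals.

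Trp73 inner promoter: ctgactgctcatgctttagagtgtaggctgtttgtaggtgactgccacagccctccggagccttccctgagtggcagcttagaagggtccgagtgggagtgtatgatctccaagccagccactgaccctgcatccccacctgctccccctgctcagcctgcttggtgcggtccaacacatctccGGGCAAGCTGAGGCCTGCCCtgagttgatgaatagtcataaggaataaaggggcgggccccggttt

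The windows searched ran from 250 bases before to 50 after each start, on both strands, since the consensus is its own reverse complement. A perfect decamer was found in 8.36% of all 32851 RefSeq promoter windows, and an abutting pair with at most 2 mismatches, and with the C and G of each core kept, in 0.33% (107 windows). Neither the window at the outer start of Trp73 nor that of Wrap73 held a match of either kind. The Trp53 window held the perfect decamer alone, with no abutting pair at up to 2 mismatches. The same was true of the Wrap53 window next to Trp53. The window at a further Wrap53 start held neither a perfect decamer nor such a pair. The tables held no promoter for Trp63. A match is a description of the letters and does not show binding.

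Trp53 was transcribed in every sample and was the abundant member of the family. In wt B cells it stood at 46.4, 47.9, 45.6 and 44.8 RPKM in the mock samples and at 58.7, 65.8, 59.6 and 62.996 after IR. All irradiated samples lay above all mock samples, as they did for 17% of the 21671 genes. The means were 46.2 ± 1.31 and 61.8 ± 3.27 RPKM (SD, n = 4 each), and the log2 fold change was 0.42 on the scale of log2(RPKM + 0.5) (SE 0.051, adjusted p = 2.89e-05, limma with Benjamini-Hochberg adjustment over all genes tested), and 25.4% of the 13821 genes tested were higher by the same test. This change was under the threshold of 0.58 that the study set for a differentially expressed gene (DEG). With 4 samples a side the exact two-sided permutation test gave p = 0.0286, the smallest it can give.

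Non-B cells of wt animals went the other way. Trp53 stood at 44.4, 43.4, 49.5 and 49.001 RPKM in the mock samples and at 36.1, 37.9, 35.025 and 38.6 after IR, again without overlap (7.89% of all genes were lower in this way). The means were 46.6 ± 3.15 and 36.9 ± 1.64 RPKM (SD, n = 4 each), and the log2 fold change was -0.33 (SE 0.065, adjusted p = 0.0065, limma), in a comparison in which 9.94% of 14018 genes were lower. The difference between the responses of B and non-B cells was itself past the test, at 0.75 on the log2 scale (adjusted p = 1.41e-06, limma over all 24 samples, in which 16.8% of 14598 genes differed in this direction). This fit treated B and non-B samples as independent, although both are split from the same spleen in the protocol. The fall in non-B cells did not pass without the libraries above 5% receptor genes (-0.29, adjusted p = 0.177, with 1 irradiated wt sample left) or with the receptor genes as a covariate (-0.28, adjusted p = 0.116), both in limma.

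The make-up of the non-B samples moved along with this fall. The summed level of 5 erythroid markers was 217.4, 210.4, 80.9 and 88.4 RPKM in wt mock replicates 1 to 4 and 38.1, 12.2, 14.3 and 20.5 after IR, and that of 5 genes of dividing cells was 273.6, 255.8, 80.4 and 96.1 against 110.5, 77.9, 52.4 and 59.1. Trp53 was lower in the mock replicates 1 and 2, with the higher erythroid and dividing cell levels, than in replicates 3 and 4. By the DEG rule, 3 of the 5 erythroid markers, 1 of the 5 dividing cell markers, 1 of the 6 B cell markers and 1 of the 7 T cell markers fell in irradiated wt non-B cells, against 4.11% of the 14018 genes. The wt B samples changed as well: 3 of 5 erythroid and 4 of 5 dividing cell markers fell there by the same rule, against 12.2% of all genes, and the erythroid sum went from 30.0 to 68.4 RPKM in the mock samples to 11.3 to 14.8 after IR. The 6 B cell markers summed to 272.8 to 433.8 RPKM in the mock and to 180.9 to 352.8 in the irradiated wt non-B samples, which overlap. The part of these shifts in the level of Trp53 was not tested, and in bulk samples fewer cells of a type and less RNA per cell cannot be told apart.

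**Figure D1:**
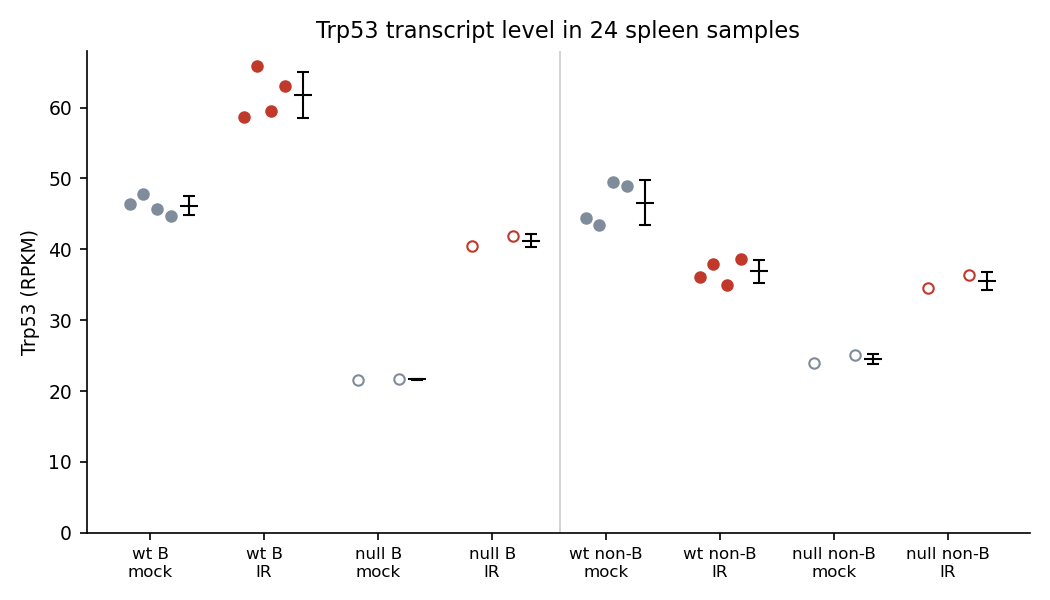
Trp53 level in RPKM (y axis, from 0) in each of the 24 samples by group (x axis); filled points are wt and open points null, grey is mock and red is IR, and the bar beside each group is its mean ± SD (n = 4 wt, n = 2 null). Irradiated wt B cells (58.7 to 65.8) lie above all other samples, and both null mock groups (21.6 to 25.04) below all others.

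Trp53 transcript remained in the null cells. In mock B cells it stood at 21.6 and 21.7 RPKM, 46.9% of the wt mean, and in mock non-B cells at 23.97 and 25.04 RPKM, 52.6% of the wt mean. The null samples lay under all wt mock samples of their cell type, and the share of all genes separated in this way was not counted. The log2 differences were -1.08 (SE 0.063, adjusted p = 8.55e-06) in B cells and -0.91 (SE 0.080, adjusted p = 0.000919) in non-B cells by limma. In these comparisons of unstressed null with wt cells 7 genes (0.0506%) passed the test in either direction among B cells and 6 (0.0428%) among non-B cells, and 0.0289% and 0.0285% of the genes tested were lower. With 2 samples against 4 the exact permutation test cannot go under p = 0.133, which is the value it gave in both. Gene-level values do not show which exons the remaining reads came from. As exons are removed in the null allele, null and wt levels compare reads over the whole gene model and not amounts of transcript.

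The transcript of the null cells rose after IR in both cell types. In null B cells Trp53 went from 21.6 and 21.7 to 40.5 and 41.8 RPKM, a ratio of the means of 1.90 and a log2 fold change of 0.91 (SE 0.073, adjusted p = 2.57e-06, limma, where 23% of genes were higher), past the DEG threshold. In null non-B cells it went from 23.97 and 25.04 to 34.6 and 36.4 RPKM, a log2 fold change of 0.53 (SE 0.092, adjusted p = 0.0398, limma, where 0.221% of genes were higher). The ranges did not overlap in either cell type, but the share of all genes separated in this way was not counted. With 2 samples a side the smallest exact permutation p is 0.333. The call in non-B cells was the least secure of these, since it was lost when any of 11 of the 12 samples was left out (adjusted p between 0.0482 and 0.277 over the 12 fits), and it had an adjusted p of 0.0647 with the replicate number as a block in limma.

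The response of the null transcript exceeded that of the wt transcript in both cell types. The difference of the log2 fold changes, null minus wt, was 0.50 in the B cells (95% interval 0.30 to 0.69, adjusted p = 0.00256, limma, where 10.6% of genes differed in this direction) and 0.86 in the non-B cells (95% interval 0.61 to 1.10, adjusted p = 0.00167, limma, where 3.37% did). Counted over the whole gene model, the null level after IR was thus 66.7% of the wt level in B cells, a log2 difference of -0.58 (adjusted p = 2.67e-05, limma, where 14.1% of genes were lower). In non-B cells the null level was 96.2% of the wt level, a log2 difference of -0.05 (95% interval -0.23 to 0.12, adjusted p = 0.624, limma). The irradiated null and wt non-B samples overlapped.

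**Figure D2:**
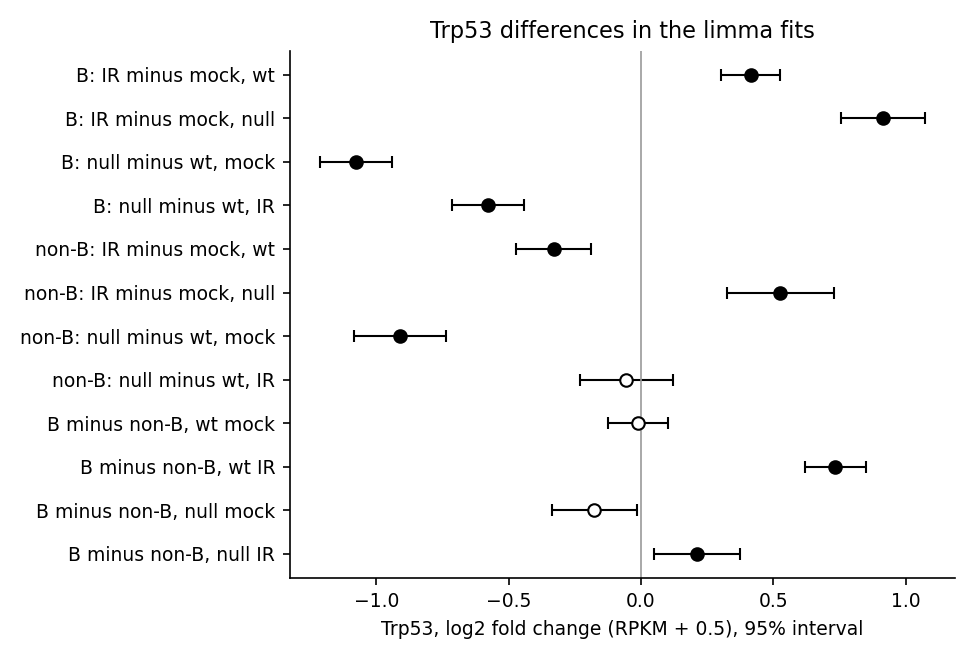
Log2 fold changes of Trp53 on log2(RPKM + 0.5) (x axis) for 12 differences between groups (y axis), with 95% intervals from the limma fits; filled points have an adjusted p under 0.05. The change after IR is above 0 in wt B cells, null B cells and null non-B cells (0.42, 0.91 and 0.53) and below 0 in wt non-B cells (-0.33).

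The 8 groups fell in the following order of mean Trp53 level, from low to high, with reads counted over the whole gene model in both genotypes. Null B mock (21.6 RPKM) and null non-B mock (24.5 RPKM) came first. Null non-B IR (35.5 RPKM) and wt non-B IR (36.9 RPKM) followed, and their ranges overlapped. Null B IR (41.2 RPKM) stood between these and the unstressed wt groups. Wt B mock (46.2 RPKM) and wt non-B mock (46.6 RPKM) overlapped as well, with a log2 difference of -0.01 (95% interval -0.13 to 0.10, adjusted p = 0.901, limma). Wt B IR (61.8 RPKM) was last. All other neighbours in this order were separated by their ranges. Each null group held only 2 samples, and the share of all genes separated in this way was not counted. Between cell types, wt B cells exceeded wt non-B cells after IR by 0.73 on the log2 scale (adjusted p = 1.16e-09, limma, where 33.2% of genes were higher). The null cells differed by 0.21 after IR (adjusted p = 0.0355, limma, where 20.9% were higher), a call lost with median-ratio scaling (adjusted p = 0.17), and by -0.18 in the mock samples (95% interval -0.34 to -0.01, adjusted p = 0.115, limma).

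The reads behind these values were many. Trp53 was covered by an estimated 760 to 1955 reads per sample, or 0.188 to 0.483 reads per exonic base of the intact gene. The highest gene of each library reached 1.43 to 1.91. Since only 1 of each set of identical reads was kept, values are held down the more they approach that upper limit. By this measure Trp53 stood under it in every sample. In the null samples the remaining reads may lie on fewer bases, and so closer to that limit. How far the changes of Trp53 were affected was not tested. The highest gene stood at 211.9 to 307.4 RPKM in the irradiated wt B samples and at 177.5 to 228.0 in the wt B mock samples. Among the genes of a sample Trp53 lay between the percentiles 77.4 and 96.8.

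Trp73 was detected at a low level and rose after IR in wt cells of both types. In wt B cells it stood at 0.164, 0.1, 0.123 and 0.020 RPKM in the mock samples and at 0.577, 0.469, 0.287 and 0.436 after IR. The wt non-B cells had 0.068, 0.123, 0.066 and 0.020 RPKM in the mock samples and 0.241, 0.238, 0.193 and 0.274 after IR. All irradiated samples lay above all mock samples of their cell type in both.

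The ratio of the means was 4.34 in the B cells (0.102 ± 0.061 to 0.442 ± 0.120 RPKM, SD, n = 4 each) and 3.41 in the non-B cells (0.0693 ± 0.042 to 0.237 ± 0.033 RPKM, SD, n = 4 each). The exact two-sided permutation test gave p = 0.0286 in each, the smallest it can give. Among the genes that never exceeded 1 RPKM in the 8 wt samples of a cell type and were above 0 in at least 1, 7.88% of 6639 among B and 8.32% of 6564 among non-B cells were likewise higher without overlap. As Trp73 did not pass the filter of 1 RPKM, limma was run on it without a filter, where the log2 fold change was 0.64 in the B cells (adjusted p = 0.00154, with 19% of 20557 genes higher) and 0.37 in the non-B cells (adjusted p = 0.00664, with 7.11% of 20629 genes higher). Both are held down by the pseudocount of 0.5, and the median of all genes was 0.12 and 0.07 in these fits.

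These are few reads, and the irradiated wt B libraries were the shallower ones, at 4.66 to 7.63 M reads against 7.51 to 10.11 M in the wt B mock samples. With 1 read worth 0.0166 to 0.0387 RPKM of Trp73, the estimates summed to 20.5 reads over the 4 mock and 61.3 over the 4 irradiated wt B samples, and to 15.4 and 44.2 in wt non-B cells. The level of the silent receptor genes was also higher in the irradiated wt samples. Their mean was 0.0691, 0.1295, 0.0056 and 0.0159 RPKM in irradiated wt B replicates 1 to 4, and 0.0284, 0.0047, 0.0752 and 0.0360 in irradiated wt non-B replicates 1 to 4, against at most 0.0032 in the mock samples. These genes were chosen for being at 0 in most mock samples, so the low mock level was partly set by that choice. The irradiated null samples, which did not enter it, reached at most 0.0095 RPKM. Replicate 3 of the irradiated wt B cells and replicate 2 of the irradiated wt non-B cells had low receptor genes. Their Trp73 levels were 0.287 and 0.238 RPKM, above every mock sample of their cell type. These are 1 library of each cell type, with an estimated 11.3 and 9.2 reads, and the part of the receptor level in the rise of Trp73 was not tested. Among irradiated wt B samples replicate 3 was lowest in both receptor mean and Trp73. Among irradiated wt non-B samples replicate 3 had the highest receptor mean, 0.0752 RPKM, and the lowest Trp73 level, 0.193 RPKM. Without the libraries above 5% the difference of the means was 0.185 RPKM in the B cells and 0.169 in the non-B cells, with no test possible at p under 0.05 (exact permutation p = 0.4 with 1 irradiated sample). With the receptor mean of each library subtracted it was 0.287 RPKM in the B cells (exact permutation p = 0.0286) and 0.134 in the non-B cells (exact permutation p = 0.0571).

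Trp73 was hardly detected in the null cells. It stood at 0.061 and 0 RPKM in null B mock and at 0 and 0.081 in null B IR samples, and at 0.041 and 0.022 in null non-B mock and 0.054 and 0.025 in null non-B IR samples. The mock and irradiated null samples overlapped in both cell types. For the samples listed at 0, 3 reads, the limit that a count of 0 allows, amount to 0.0622 to 0.0625 RPKM. After IR the null samples lay under all wt samples of their cell type, at 9.2% of the wt mean among B and 16.7% among non-B cells (exact permutation p = 0.133 in each, the smallest for 2 against 4). The share of genes as low as Trp73 that were separated in this way was not counted. Limma without a filter gave log2 differences of -0.80 (adjusted p = 0.0025, with 9.32% of genes lower) and -0.45 (adjusted p = 0.00437, with 12.1% lower). Without the libraries above 5% the difference of null from wt after IR was -0.287 RPKM in the B cells, where 1 sample a side was left, and -0.199 in the non-B cells, where 1 wt sample was left, beside -0.402 and -0.197 with all libraries. The difference between the responses of the genotypes did not pass, at -0.62 in the B cells (adjusted p = 0.0979) and -0.35 in the non-B cells (adjusted p = 0.13), both by limma without a filter. On the RPKM scale this difference was -0.331 and -0.159 with all libraries and -0.216 and -0.161 without those above 5%. The receptor mean was at most 0.0095 RPKM in the irradiated null samples, so that a comparison of irradiated wt with irradiated null cells for a gene this low also compares libraries with different receptor levels.

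Irradiated wt B cells had more Trp73 than irradiated wt non-B cells (0.287 to 0.577 against 0.193 to 0.274 RPKM, exact permutation p = 0.0286), whereas the mock samples overlapped (exact permutation p = 0.486). How many other low genes were separated between the irradiated cell types was not counted. The difference after IR was 0.206 RPKM with all libraries and 0.049 without those above 5% receptor genes, with 1 sample a side and no test. As for the responses to IR, B minus non-B was 0.27 on the log2 scale (adjusted p = 0.195, limma without a filter). Per length, Trp53 exceeded Trp73 in mean level 453.5-fold in wt B mock and 139.7-fold in wt B IR samples, and 672.1-fold and 156.1-fold in the wt non-B samples. Gene-level values do not tell the transcripts of the outer and the inner promoter apart.

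Trp63 was at the limit of detection. It was listed at 0 in 10 of the 24 samples, among them all 4 wt B mock samples, and never exceeded 0.147 RPKM. After IR it stood at 0.095, 0.147, 0 and 0.015 RPKM in wt B cells, an estimated 4.9, 5.7, 0 and 1.0 reads. The wt non-B cells had 0.011, 0.011, 0 and 0.063 RPKM in the mock samples and 0.015, 0.017, 0.135 and 0.092 after IR. The mock and irradiated samples overlapped in both cell types, and the exact permutation p was 0.143 in the B cells and 0.171 in the non-B cells.

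The higher Trp63 values were in the libraries with many receptor genes above 0. Replicates 1 and 2 of the irradiated wt B cells had a receptor mean of 0.0691 and 0.1295 RPKM, beside their Trp63 levels of 0.095 and 0.147, and replicate 3 of the non-B cells had 0.0752 beside 0.135. Without the libraries above 5%, the difference between irradiated and mock wt samples was 0.0 RPKM in the B cells and -0.0042 in the non-B cells. The null samples ranged from 0 to 0.039 RPKM. Of 4 epithelial markers, the summed level was 1.5 to 6.0 RPKM over all samples, and at least 2 of the 4 had a mean under 1 RPKM in every group.

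**Figure D3:**
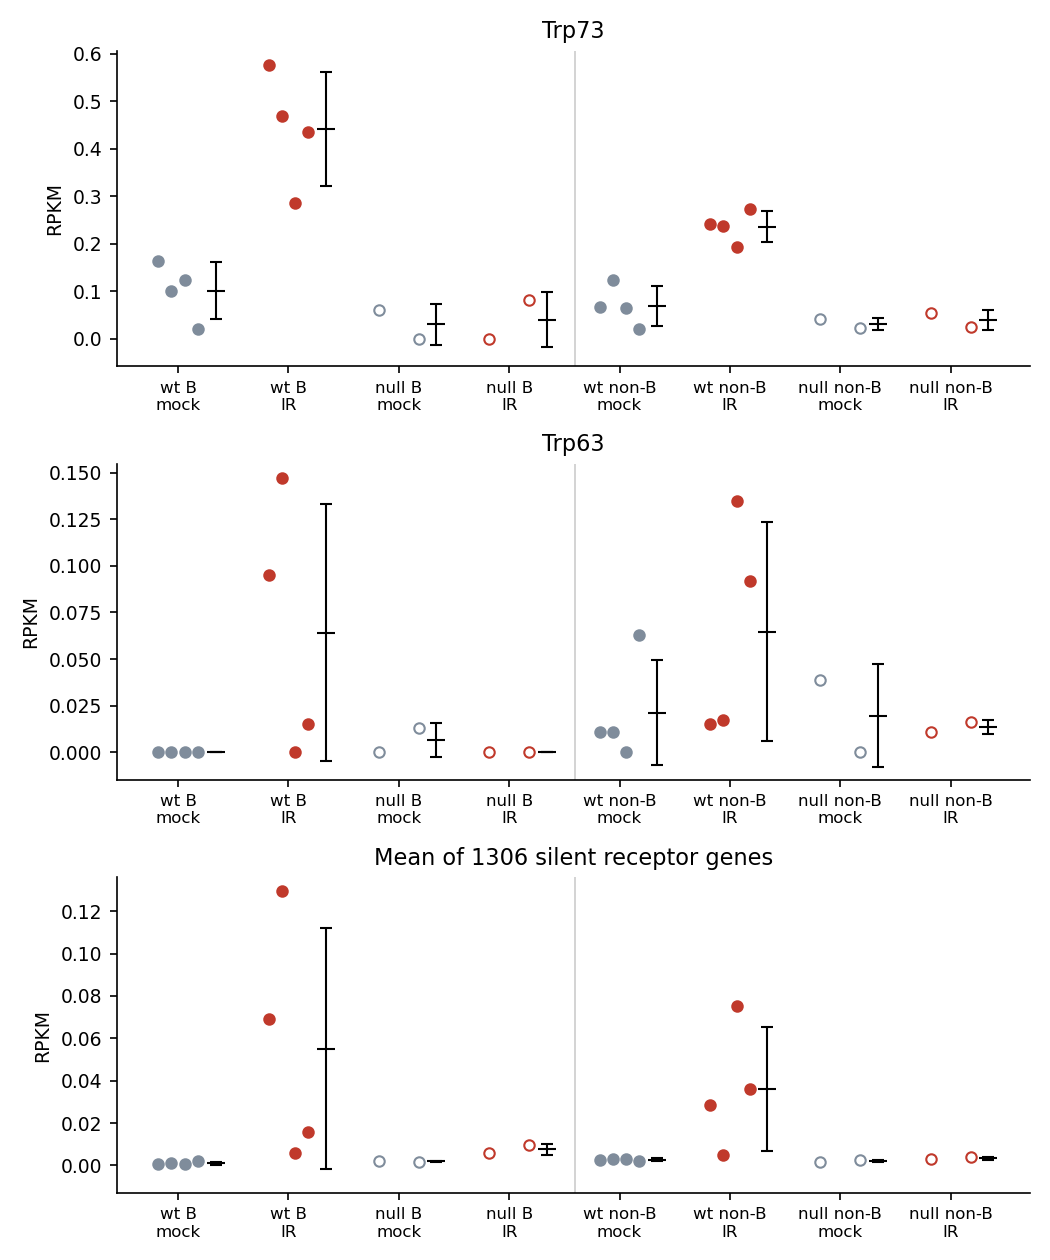
Levels in RPKM (y axes) of Trp73, of Trp63 and of the mean over 1306 silent receptor genes in each of the 24 samples by group (x axis); filled points are wt and open points null, grey is mock and red is IR, and bars are mean ± SD. Trp73 is higher in all irradiated wt samples (0.193 to 0.577), whereas the highest Trp63 values (0.135 and 0.147) belong to libraries with the highest receptor means.

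Both genes that start next to a responding member were examined in the same fits. Wrap53, which starts 0.1 kb from Trp53 on the other strand and encodes a protein of telomerase and Cajal body assembly, had 15.8, 13.8, 12.7 and 15.02 RPKM in wt B mock and 23.5, 23.1, 27.8 and 26.8 in wt B IR samples. All irradiated samples were above all mock samples, with a log2 fold change of 0.80 (SE 0.087, adjusted p = 9.68e-06, limma). In null B cells it had 17.4 and 16.4 RPKM in the mock and 17.9 and 20.2 in the irradiated samples, without overlap (log2 fold change 0.17, adjusted p = 0.304, limma). The difference between the genotypes, -0.63, passed (adjusted p = 0.0129, limma, where 8.14% of genes were lower). Trp53 had the opposite sign in the same comparison, since its response was higher in the null cells. In mock B cells both null samples lay above the wt samples of Wrap53, without passing the test (log2 difference 0.23, adjusted p = 1, limma). The gene models of Wrap53 and Trp53 do not overlap, although the libraries do not mark strand. For wt non-B cells the log2 fold change of Wrap53 was 0.26 (adjusted p = 0.0804, limma).

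Wrap73, which starts 2.2 kb from the outer start of Trp73 and encodes a WD repeat protein, had 14.7, 14.1, 14.7 and 14.0 RPKM in wt B mock and 29.2, 27.9, 36.4 and 36.5 in wt B IR samples, more than a doubling in mean level (ratio 2.26, log2 fold change 1.14, SE 0.095, adjusted p = 9.98e-07, limma). In null B cells it had 17.2 and 14.5 RPKM in the mock and 17.7 and 15.9 in the irradiated samples, which overlap, and the difference between the genotypes was -1.06 (adjusted p = 0.00105, limma). Among wt non-B cells it had 14.5, 15.5, 15.8 and 18.99 RPKM in the mock and 20.4, 22.5, 21.5 and 25.0 in the irradiated samples (log2 fold change 0.46, adjusted p = 0.0129, limma). The change of Wrap73 was larger in B than in non-B cells by 0.68 (adjusted p = 0.00117, limma). Among irradiated wt B cells replicates 3 and 4 held the highest Wrap73 levels, and replicates 1 and 2 had the most receptor genes above 0.

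Within 5 places on either side of each member the files held 18 genes, of which 10 passed the filter in the B cells and 13 in the non-B cells. In wt B cells 5 of the 10 were higher and 2 lower after IR, against 25.4% and 25.8% of all genes, with a median log2 fold change of 0.17 beside 0.01 over all genes. Among wt non-B cells 1 of the 13 was higher and 2 lower, against 8.72% and 9.94%, with a median of -0.11 beside -0.03. The lower genes in non-B cells were Atp1b2, which encodes a sodium pump subunit and starts 25.6 kb from the Trp53 start, and Smim1, which carries the Vel blood group antigen of red cells and starts 114.1 kb from the Trp73 start. Atp1b2 went from 8.63 to 29.7 RPKM in the 4 mock samples to 0.095 to 0.386 after IR (log2 fold change -4.54, adjusted p = 0.00031, limma), and Smim1 from 1.70 to 9.94 to between 0.556 and 1.25 (-2.04, adjusted p = 0.0194, limma). The erythroid markers moved with both, and their part in these changes was not tested.

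**Figure D4:**
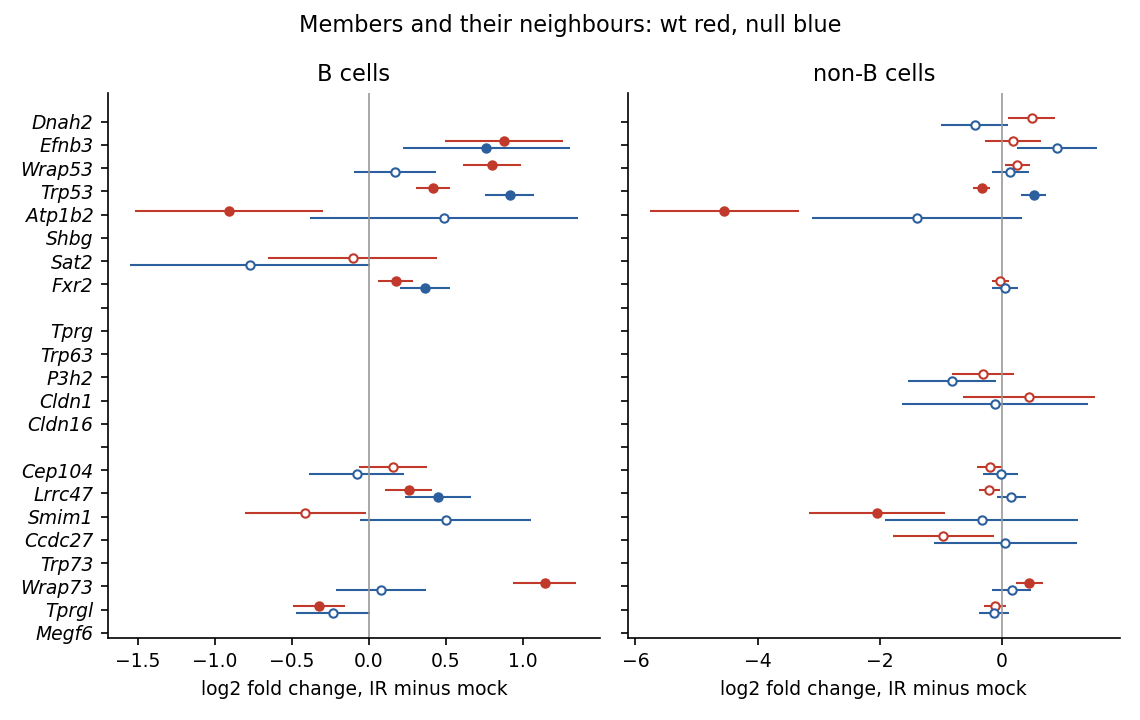
Log2 fold change after IR (x axis, on log2(RPKM + 0.5), with 95% intervals) of the family members and the genes within 5 places of them (y axis, in chromosomal order, with gaps between the 3 loci), in B cells (left) and non-B cells (right, on its own scale); red is wt, blue is null, filled points have an adjusted p under 0.05, and genes without points did not pass the filter on low values. Wrap53 and Wrap73 rise in wt B cells (0.80 and 1.14) and not past the test in null B cells, whereas Trp53 rises in both.

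Regulators of p53 were taken from a list of 36 genes (ubiquitin ligases, kinases, deubiquitinases, acetyl- and methyltransferases, binding proteins). By the DEG rule, 6 of the 35 tested rose and 0 fell in irradiated wt B cells, against 12.5% and 12.2% of all genes tested, with a median log2 fold change of 0.03 (at an unadjusted p under 0.05 in limma, with no threshold of size, 10 were higher and 8 lower). Mdm2, the ligase that degrades p53, went from 30.8 ± 1.51 to 99.1 ± 5.03 RPKM (SD, n = 4; 1.67, adjusted p = 3.53e-10, limma). Chek2, a kinase that phosphorylates p53 after DNA breaks, went from 10.2 ± 0.855 to 35.4 ± 5.53 RPKM (SD, n = 4), by 1.73 on the log2 scale. Ppp1r13l, which encodes the inhibitory protein iASPP, rose by 1.66, and Smyd2, a methyltransferase of p53, by 1.21. Ppp1r13l entered the B cell fit only through the irradiated wt samples (1.085 to 1.853 RPKM, against at most 0.253 in the other B cell groups), and without the 2 regulators of which this holds 5 of 33 rose. The others that rose were Wrap53 and Mdm4, the latter a partner of Mdm2 named after its value was seen (0.77). In null B cells 7 of the 35 rose and 1 fell, against 13.1% and 11.2%. Smyd2 rose there by 2.00 (adjusted p = 6.71e-06, limma), whereas Mdm2 had -0.23 (adjusted p = 0.0311, limma), which is under the DEG threshold.

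In non-B cells of wt animals 2 of 34 regulators rose and 2 fell, against 5.74% and 4.11% of all genes. Mdm2 rose from 31.6 ± 1.24 to 72.7 ± 1.25 RPKM (SD, n = 4; 1.19, adjusted p = 1.49e-07, limma), and Ppp1r13l by 0.92. Chek1, a checkpoint kinase of dividing cells, fell by 1.52 on the log2 scale (adjusted p = 0.0399, limma), from a mean with a wide spread, 4.75 ± 3.37 RPKM (SD, n = 4), and Nedd4, a ubiquitin ligase, fell by 0.72 on the log2 scale. Without irradiated wt replicate 1 or replicate 3 the count of regulators called was 2, and without the libraries above 5% receptor genes it was 1. In null non-B cells 0 of the 34 passed the DEG rule in limma, in a comparison in which 0.442% of all genes did, and at an unadjusted p under 0.05 there were 2 higher and 1 lower.

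Of 30 targets of p53, taken from textbook knowledge, 20 of 29 tested rose and 1 fell in irradiated wt B cells, against 12.5% and 12.2% of all genes, with a median log2 fold change of 2.02. In the wt non-B samples 23 of 30 rose and 0 fell, against 5.74% and 4.11%, with a median of 1.37. At an unadjusted p under 0.05 in limma, with no threshold of size, 3 targets were lower in wt B cells and 0 in wt non-B cells. Eda2r in both cell types and Perp in non-B cells entered only through irradiated samples above 1 RPKM, which leaves 19 of 28 and 21 of 28 higher. On the scale of log2(RPKM + 0.5) the same 4 targets had the largest changes in both. By the ratio of mean RPKM the order differs, since the pseudocount holds down genes with a low mock level such as Eda2r, a receptor gene named after its values were seen (0.0132 to 1.30 RPKM in wt B cells). Phlda3, an inhibitor of Akt, went from 1.02 ± 0.067 to 109.4 ± 11.5 RPKM in the B cells and from 2.50 ± 0.758 to 69.9 ± 2.89 in the non-B cells (SD, n = 4). Cdkn1a, which encodes the cyclin-dependent kinase inhibitor p21, went from 1.08 ± 0.199 to 89.5 ± 7.72 and from 4.57 ± 1.52 to 77.3 ± 7.86 RPKM. The kinase gene Plk2 rose by 4.68 and 4.06 on the log2 scale, and Gtse1, whose product binds p53, by 4.67 and 2.62. Per length, the irradiated levels of Phlda3 and Cdkn1a were above that of Trp53 in the same groups. Rrm2b, a subunit of ribonucleotide reductase, was the 1 target that fell in wt B cells, by 0.80 on the log2 scale, and is named after its value was seen. Its mean went from 23.1 to 13.1 RPKM in wt B cells and from 26.2 to 13.2 in null B cells. In non-B cells the targets rose while the Trp53 level was lower.

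In the null cells the targets did not share this rise. In null B cells 4 of 29 rose and 9 fell, against 13.1% and 11.2% of all genes, with a median of -0.11, and in null non-B cells 1 of 30 rose, against 0.193% of all genes, with a median of 0.01. The response was lower in null than in wt cells, past the DEG rule, for 23 of 29 targets in B cells, against 6.56% of all genes, and for 21 of 30 in non-B cells, against 3.72%. Cdkn1a was at 0.626 ± 0.089 RPKM in null B mock and at 0.644 ± 0.116 in null B IR samples (SD, n = 2). Trp53 itself, whose remaining transcript rose in these same null samples, moved apart from the targets.

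**Figure D5:**
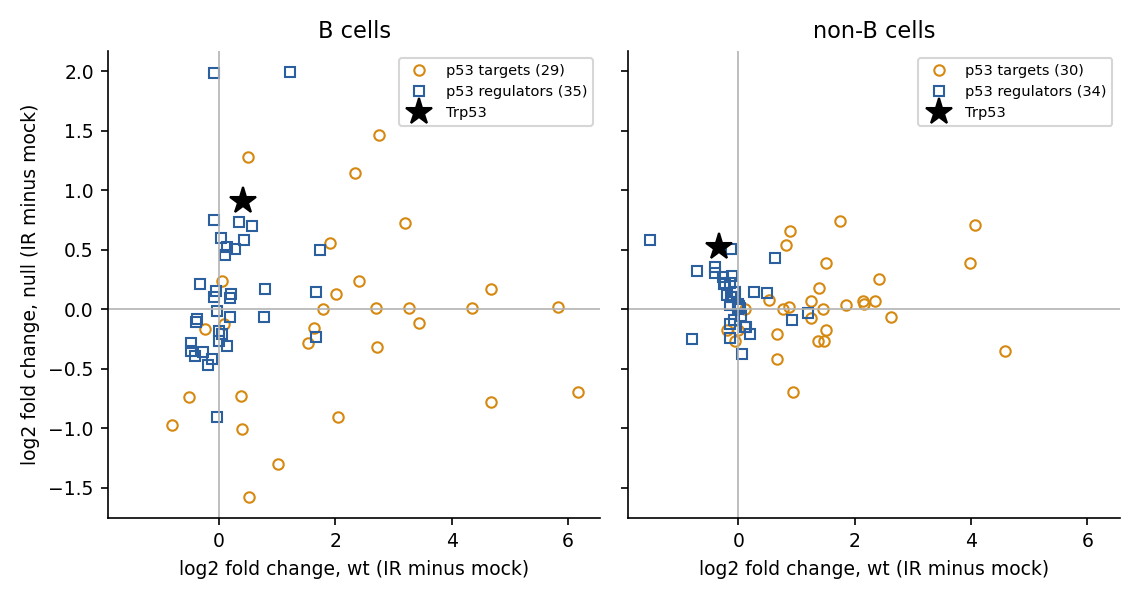
Log2 fold change after IR in wt cells (x axis) against null cells (y axis), on log2(RPKM + 0.5), for the tested p53 targets (circles), p53 regulators (squares) and Trp53 (star), in B cells (left) and non-B cells (right). Phlda3 lies farthest to the right in both panels (6.17 and 4.59), whereas Trp53 lies above 0 on the y axis in both panels (0.91 and 0.53) and left of 0 on the x axis in non-B cells (-0.33).

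The genes whose pattern was most like that of Trp53 were sought by Pearson's r of log2(RPKM + 0.5), as a description. Over the 16 wt samples these were Eef1d (r = 0.981), Nol9 (r = 0.980), 9430008C03Rik (r = 0.972), Yrdc (r = 0.962) and Rnps1 (r = 0.960), among 14597 genes. Eef1d, which encodes a translation elongation factor, went from a mean of 23.2 to 29.0 RPKM in wt B cells and from 23.3 to 19.5 in wt non-B cells after IR, and Nol9, a gene of ribosome biogenesis, from 25.7 to 38.1 and from 24.1 to 18.7. Among the 4 wt groups both were highest in irradiated B cells and lowest in irradiated non-B cells, as was Trp53. Both genes were chosen by r over these same wt samples, so the shared order is no separate observation. In null cells the mean of Eef1d went from 21.8 to 32.1 RPKM (B) and from 23.1 to 26.6 (non-B). That of Nol9 went from 24.8 to 48.0 and from 22.8 to 30.3 RPKM in null B and null non-B cells. For 9430008C03Rik the means went from 17.4 to 26.8 (wt B), 18.3 to 36.3 (null B), 16.1 to 12.5 (wt non-B) and 17.8 to 23.1 RPKM (null non-B). Over all 24 samples other genes came first and r was lower, with Txnrd1 at 0.740, Plbd2 at 0.738, Wdr25 at 0.722, Kdm5c at 0.715 and Pam16 at 0.710. The samples share their groups in both, so that r takes in the differences between groups as well as those between samples.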

How the data were processed

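RNA had been extracted, treated with DNase, depleted of ribosomal RNA and made into TruSeq v2 libraries, which do not mark strand. The authors masked bases of low quality, aligned the reads to mm9 with TopHat (2.0.8 per the labels' processing notes; the paper's methods name another version), removed duplicates down to 1 read, assigned reads to UCSC genes with featureCounts 1.4.5 and deposited RPKM values, with exonic reads as the library size, as 1 table of 21671 genes per sample. No pair of tables was identical. The methods name 4 wt and 2 null mice in each condition, as many as there are samples of each cell type and treatment. B and non-B cells are split from the same spleen in the protocol, so samples of both types can share a mouse. The labels do not say which do, and the fits over 24 samples treated them as independent.

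The unit being RPKM, limma 3.58.1 (R 4.3.3; eBayes with a trend) was run on log2(RPKM + 0.5), by cell type over 12 samples with 4 group means, and over 24 samples for differences between cell types. Genes with RPKM above 1 in at least 1 wt sample entered. A gene passed at an adjusted p (Benjamini-Hochberg) under 0.05, and the DEG rule, the study's, added an absolute log2 fold change above 0.58. Trp63 and Trp73 were compared with exact two-sided permutation tests (scipy 1.17.1). Python 3.11.15, numpy 2.4.6, pandas 2.3.3 and matplotlib 3.10.9 served the rest. Only the comparison of IR with mock in wt B cells was also run on simulated data, which does not bear on the null or non-B comparisons. Depth was estimated as the read number at which low RPKM times exonic length (GENCODE on NCBIM37, 91.9% of genes) came nearest to whole reads; 59.4% to 72.2% of low values lay within 0.1 of a whole read, so the depths and reads are approximate and cover no error of the gene models.

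Members and lists were chosen with earlier results of these data known. Named genes were the members, the files' genes within 5 RefSeq places of them, the 5 most correlated with Trp53, and the 4 called members of each list with the largest change; others are said to be named after their values were seen. Alternatives were pseudocounts of 0.1 and 1, other filters and scalings, a replicate block, other sample sets, a receptor covariate and leaving out samples. For same-numbered samples, mock against IR, r of the deviations from the group mean was 0.156 to 0.323 in wt non-B and 0.015 to 0.087 in wt B cells. Mock replicates 2 and 3 of the wt non-B cells had a higher r with another number, as had mock replicate 3 of the wt B cells. In null non-B cells r was -0.253, and the labels do not say what a number shares.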

Additional observations from a re-analysis of the deposited data

Results flagged for a closer look

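The effect of IR on a transcript differed between genotypes or cell types for Trp53, Wrap53 and Wrap73, each tested as a difference of log2 fold changes in limma. For Trp53, null minus wt was 0.50 in the B cells and 0.86 in the non-B cells, with every irradiated null sample above every mock null sample in both. In wt cells B minus non-B was 0.75 for Trp53, 0.54 for Wrap53 (adjusted p = 0.00363, limma) and 0.68 for Wrap73. Null minus wt in B cells was -0.63 for Wrap53 and -1.06 for Wrap73, opposite in sign to Trp53. In non-B cells the same difference was -0.12 for Wrap53 (adjusted p = 0.696, limma) and -0.29 for Wrap73 (adjusted p = 0.334, limma). No sample of the 19 groups of 4 examined for these 5 genes stood apart from its group by Dixon's criterion, which flags about 1 in 20 by chance.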

How the results depend on the processing

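Of 150 values of 15 Trp53 results under the alternatives that left out no single sample, 141 kept their direction and side of the threshold and 9 lost the call. All 9 kept their direction. In wt non-B cells the log2 fold change after IR was -0.28 with the receptor covariate and -0.29 without libraries above 5% receptor genes. In null non-B cells it was 0.53 with no filter (adjusted p = 0.0565), 0.49 with quantile normalization (adjusted p = 0.0532), 0.53 with the replicate block (adjusted p = 0.0647) and 0.53 without those libraries (adjusted p = 0.0931), all by limma. For B against non-B cells of irradiated null animals it was 0.15 with median-ratio scaling, 0.11 with quantile normalization (adjusted p = 0.312) and 0.19 without those libraries (adjusted p = 0.116), by limma. The cause was not tested.

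Leaving out each sample gave the following ranges of log2 fold change for Trp53. After IR they were 0.38 to 0.44 in wt B, 0.89 to 0.94 in null B, -0.36 to -0.30 in wt non-B and 0.49 to 0.56 in null non-B cells. For null minus wt they were -1.09 to -1.06 (B mock), -0.60 to -0.55 (B IR), -0.94 to -0.88 (non-B mock) and -0.09 to -0.02 (non-B IR), and for the difference of the responses 0.47 to 0.53 in B and 0.82 to 0.89 in non-B cells. For B minus non-B they were -0.0438 to 0.0195 (wt mock), 0.70 to 0.76 (wt IR), -0.21 to -0.14 (null mock) and 0.175 to 0.25 (null IR, 4 of 24 fits losing the call), and 0.71 to 0.78 for the response in wt cells. The difference in wt mock samples, not past the test in any fit, changed sign in 3 of 24.

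For Trp73 the difference in RPKM ranged from 0.296 to 0.392 in B and from 0.151 to 0.185 in non-B cells with a sample left out, where the smallest exact permutation p is 0.0571. Without libraries above 5% receptor genes it was 0.185 and 0.169, and with the receptor mean subtracted 0.134 in non-B cells. The comparisons of Trp73 between genotypes and cell types after IR without those libraries were also added after the data were seen, and B minus non-B in wt cells moved most, from 0.206 to 0.049 RPKM. For Trp63 the ranges were 0.0367 to 0.0857 and 0.0201 to 0.0601, with 0.0 and -0.0042 without those libraries. The count of regulators called ranged from 6 to 7 in wt B and from 2 to 4 in wt non-B cells with a sample left out, and was 1 in wt non-B cells without those libraries, an alternative added after the data were seen, which leaves 1 irradiated sample. Over all other alternatives the regulators called were 6 to 7 in wt B and 3 to 6 in wt non-B cells, the count of 6 coming from 1 fit of all 24 samples. Targets called ranged from 21 to 22 in B and from 23 to 24 in non-B cells with a sample left out. Under the other alternatives they were 20 to 23 in B and 18 to 24 in non-B cells, with 18 without the libraries above 5% receptor genes.

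The replicate block changed no other Trp53 call. In null non-B cells it lowered the count of genes called after IR from 66 to 17, and with the numbers of the irradiated null non-B samples crossed the count was 159 (added after the data were seen). Depth limits Trp63 and Trp73, where a few reads decide a value.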

Other observations

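Among unstressed null samples, replicate 2 of the non-B cells had an erythroid marker sum of 160.8 RPKM and replicate 1 of 41.2, while Trp53 was at 25.04 and 23.97 RPKM. Yrdc, which encodes an enzyme of tRNA modification, went in mean level from 20.5 to 26.5 RPKM in wt B cells, from 21.8 to 36.2 in null B cells, from 19.4 to 15.998 in wt non-B cells and from 18.0015 to 25.4 in null non-B cells after IR. Rnps1, a gene of mRNA processing, went from 47.2 to 59.0, from 46.5 to 65.8, from 45.8 to 39.8 and from 45.7 to 47.3 RPKM in the same groups. Both were singled out for their likeness to Trp53 over the wt samples, and the null samples did not enter that choice.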
